A study of Homo sapiens with 6 samples.

Results

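The 10 genes described here encode the invariant chains of the T-cell receptor (CD3D, CD3E, CD3G and CD247), the kinase LCK that acts beneath the receptor, and 5 further surface proteins of the T lineage (CD2, CD4, CD5, CD7 and CD28). They were taken by name: every array probe whose deposited gene name equals one of these symbols was kept, which gave 16 of 50586 probes and 25 of 58717 spots for cell RNA on each array. The RNA came from MOLT-4, an established line of T-cell acute lymphoblastic leukaemia. Cells carried either an empty vector, called mock here, or a vector for NUDT16, an enzyme that removes the 5′ cap from RNA, and each of the groups has 3 arrays. From both groups, RNA with a 7-methylguanosine or trimethylguanosine cap (m7G or m3G) was immunoprecipitated out of total RNA, copied into Cy3-labelled cDNA and hybridised to 1-colour Agilent arrays. The arrays therefore report the capped fraction only, and less of a transcript cannot be told apart from a smaller capped share of it; input RNA was not analysed here. Every array comes from 1 line, and nothing in the labels says whether the replicates were separate transfections, so the p-values measure only the spread between these samples.

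The T-cell receptor recognises antigen through a pair of variable chains that cannot signal by themselves. They are held at the surface by CD3 gamma, delta and epsilon (CD3G, CD3D, CD3E) and by the zeta chain, CD247, whose cytoplasmic tails carry tyrosine motifs. LCK, which binds the tail of the coreceptor CD4, phosphorylates these motifs, and the kinase ZAP70 then docks on them. CD28 and CD2 deliver costimulation and adhesion, CD5 dampens receptor signals, and CD7 is an early marker of the lineage. A 5′ cap protects an mRNA from decay and recruits the translation machinery, and decapping commits a transcript to degradation.

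The probes are 60-base oligonucleotides. The stretches below are shown because they are what was measured for the members on which the results turn. The first 4 hold the letters AATAAA, the usual polyadenylation signal near the end of an mRNA, in capitals. No base of the next 4 is capitalised, and for these only the first 30 bases are given, except for the upstream LCK probe, which is given whole.

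CD3D, A_33_P3375541, bases 31 to 60: cttcccttcttgctcagccAATAAAtatat
CD247, A_23_P34676, bases 25 to 54: ttacacagtgtgAATAAAgtgctgcggagc
CD4, A_24_P295999, bases 23 to 52: cccctgagctgaAATAAAaatacAATAAAc
CD5, A_33_P3298990, bases 29 to 58: aaccaaaccaaaAATAAAgagtttagttga
CD3E, A_23_P416747, bases 1 to 30: actccctgtttcctgggctagtcttggacc
CD3G, A_23_P98410, bases 1 to 30: gttcccagagatgacaaatggagaagaaag
LCK downstream, A_23_P103361, bases 1 to 30: cccacccacatgtgacacatatgcaccttg
LCK upstream, A_33_P3382746, bases 1 to 60: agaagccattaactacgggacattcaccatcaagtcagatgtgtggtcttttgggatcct

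AATAAA occurred in 4 of the 16 member probes, against 7.88% of all 50586 probes, and its reverse complement in 1 of 16 against 3.74%. Those 4 were all well above background on all 6 arrays, and over all probes so measured the share with AATAAA was 9.81%. The CD4 probe holds AATAAA at 2 places. A match is a description of these letters and does not show that the site is used.

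The cap sits on the first transcribed base, so the sequence at the annotated start is shown as well, from RefSeq (GRCh38.p14). Each line gives 20 bases before the start in lower case and the first 10 transcribed bases in capitals. RefSeq's promoter table matched 5 members, with 6 starts: CD3D, CD247, CD2, CD28 and, with 2 starts, LCK. CD3E, CD3G, CD4, CD5 and CD7 had no entry.

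CD3D, chr11:118342696-118342725, minus strand: agttcctcccccactctcctCTTTCCGGTA
CD247, chr1:167518520-167518549, minus strand: gcagagactccttttctcctAACCGTCCCG
CD2, chr1:116754410-116754439, plus strand: ctcggggtgtggactccaccAGTCTCACTT
CD28, chr2:203706619-203706648, plus strand: tgcgtctttcagttcccctcACACTTCGGG
LCK, first start, chr1:32251245-32251274, plus strand: gggtgggacgtgggcgcgggGAGACAGGTG
LCK, second start, chr1:32274101-32274130, plus strand: caggggccgtgtgtgaatttACTTGTAGCC

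The first base was A at 4 of the 6 starts, against 44.4% of the 35116 starts in the table. A start with C followed by 4 pyrimidines, the arrangement at the head of terminal oligopyrimidine mRNAs, was seen for CD3D alone among these 6, against 4.07% of all starts. Start usage in MOLT-4 was not measured.

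The share of spots well above background ran from 39.3% to 51.1% on the mock arrays. It was 42.3%, 14.6% and 52.0% on NUDT16 replicates 1, 2 and 3, so NUDT16 replicate 2 was much dimmer than the rest. The arrays lay on 3 slides, each with a mock and a NUDT16 array of the same replicate number. Both probes named NUDT16 were well above background on no array. A probe named for the pseudogene NUDT16P1, whose sequence can be near-identical to its parent, was well above background on all 3 NUDT16 arrays and on no mock array, with a limma adjusted p of 0.00155. It was the only one of 17765 tested probes to pass.

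None of the 9 T-cell receptor and T-lineage genes that could be tested differed between the vectors beyond the spread of the arrays. CD7 was not tested, because its probe was not well above background on either replicate 2 array. All 10 genes gave signal well above background on at least 1 array, and 7 did so on all 6: CD3D, CD3E, CD3G, CD247, CD4, CD5 and LCK. What set the arrays apart was the replicate number: CD3E, CD5, CD247 and LCK were highest on both replicate 1 arrays, CD3G was lowest on replicate 1 within each group, CD3D moved little, and CD4 did not follow the replicate number. Differences between NUDT16 and mock lay from 0.58 lower (CD3G) to 0.66 higher (CD4) on the log2 scale, and each had a 95% interval that included 0. The intervals given for each gene come from the fit without the replicate number as a block, so they also hold the spread between replicates. With that block they were narrower and each still included 0.

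The values that follow are normalised log2 signals: the log2 processed intensity of a probe minus the 75th percentile of its array, taken over the 6582 probes well above background on all 6 arrays. A value of 0 is the level of that percentile, and a step of 1 is a doubling. Probes differ in how well they hybridise, so a level is compared only across arrays, never with that of another probe. Probe positions are in hg19, as deposited; an annotation of that build was not used here, so exons and untranslated regions are not named.

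The CD3D probe, at chr11:118209803-118209862 on the minus strand, read 3.65, 4.0 and 3.62 on mock replicates 1, 2 and 3 and 3.81, 4.41 and 3.71 on the NUDT16 arrays. These are means of 3.76 ± 0.21 and 3.98 ± 0.38 (SD, n = 3). The 6 values spanned 0.79, the narrowest range of the 8 member probes on all 6 arrays. The NUDT16 value was the higher in each same-numbered pair, by 0.16, 0.41 and 0.09, yet the groups overlapped. The limma difference was 0.22, with a 95% interval from -1.04 to 1.48.

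CD3E encodes the epsilon chain, which pairs with both the gamma and the delta chain. Its probe, at chr11:118186314-118186373 on the plus strand, read -2.07, -3.70 and -3.16 in mock and -1.71, -3.15 and -3.21 in NUDT16 cells, means of -2.98 ± 0.83 and -2.69 ± 0.85 (SD, n = 3). Replicate 1 was the highest array of each group, and the groups overlapped over most of their range. The NUDT16 array was the higher by 0.36 and 0.55 in pairs 1 and 2 and the lower by 0.05 in pair 3. The fitted difference was 0.29, with an interval from -1.21 to 1.78.

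CD3G encodes the gamma chain, and its gene lies beside CD3D and CD3E on chromosome 11. The probe, at chr11:118223931-118223990 on the plus strand, read 0.55, 1.43 and 1.72 in mock and -0.03, 0.28 and 1.70 in NUDT16 cells, means of 1.24 ± 0.61 and 0.65 ± 0.93 (SD, n = 3). It ran opposite to CD3E over the replicates: replicate 1 was the lowest array of each group and replicate 3 the highest. CD3G was the only member probe on all 6 arrays with the NUDT16 array lower in every pair, by 0.58, 1.14 and 0.02. The fitted difference was -0.58, with an interval from -2.04 to 0.88.

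CD247 encodes the zeta chain. Its main probe, at chr1:167400151-167400210 on the minus strand, read -0.66, -1.42 and -1.25 in mock and -0.49, -0.86 and -1.12 in NUDT16 cells. The means were -1.11 ± 0.40 and -0.82 ± 0.32 (SD, n = 3), and replicate 1 was again the highest array of each group. NUDT16 was the higher in every pair, by 0.17, 0.56 and 0.13, and the fitted difference was 0.29 with an interval from -0.99 to 1.56. A second CD247 probe, at chr1:167404571-167404630 and so upstream of the first in this minus-strand gene, was well above background on mock replicates 1 and 2 only and was not tested.

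LCK has 2 probes, and both were well above background on all 6 arrays. The downstream probe, at chr1:32751432-32751491 on the plus strand, is printed at 10 spots of each array. It read 1.33, -0.33 and 0.48 in mock and 1.72, 0.20 and 0.76 in NUDT16 cells, means of 0.49 ± 0.83 and 0.89 ± 0.77 (SD, n = 3). The array order was the same in both groups: replicate 1 highest, replicate 3 next and replicate 2 lowest. Repeat spots of the probe, which reflect printing and reading only, had an SD of 0.019 to 0.075 on the log2 scale within an array. The NUDT16 array was the higher in each pair, by 0.39, 0.53 and 0.28, and the fitted difference was 0.40 with an interval from -1.07 to 1.87.

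The upstream LCK probe, at chr1:32745711-32745770, kept that array order with a wider spread. It read 0.90, -1.71 and -0.34 in mock and 1.38, -1.64 and -0.05 in NUDT16 cells, a range of 3.08 over the 6 arrays against 2.05 for the downstream probe. Its pair differences were 0.48, 0.06 and 0.29, all with NUDT16 the higher, and its fitted difference was 0.28 with an interval from -1.62 to 2.18.

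CD4, the coreceptor for class II antigen complexes, departed from the other members. Its main probe, at chr12:6929910-6929969, read -0.53, -1.51 and -0.72 in mock and -0.44, 0.61 and -0.95 in NUDT16 cells, means of -0.92 ± 0.52 and -0.26 ± 0.80 (SD, n = 3). NUDT16 replicate 2, the dimmest array, gave the highest value and mock replicate 2 the lowest. Pair 2 accordingly differed by 2.12, against 0.09 and -0.23 in pairs 1 and 3. The fitted difference of 0.66, with an interval from -0.74 to 2.07, was the most positive among the members and rested on that pair. With replicates 1 and 3 alone it was -0.07. The other CD4 probe was well above background on NUDT16 replicate 3 only.

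CD5 encodes a scavenger-type receptor that restrains T-cell receptor signals. Its probe, at chr11:60895260-60895319, read -0.80, -2.14 and -2.03 in mock and -0.43, -2.06 and -1.46 in NUDT16 cells, means of -1.66 ± 0.74 and -1.32 ± 0.82 (SD, n = 3). Replicate 1 was highest in each group, as for CD3E and LCK. The pair differences were 0.37, 0.08 and 0.57, all with NUDT16 the higher, and the fitted difference was 0.34 with an interval from -1.12 to 1.80.

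CD2, an adhesion receptor for CD58, had 3 probes. The brightest, at chr1:117311778-117311837, was well above background on every array but NUDT16 replicate 2, so it entered the test through the mock arrays. It read -3.12, -3.52 and -3.10 in mock and -3.33, -4.33 and -2.62 in NUDT16 cells, where the value of -4.33 is only a reading near background. The fitted difference was -0.18, with an interval from -1.56 to 1.20, and NUDT16 was lower in pairs 1 and 2 but higher by 0.48 in pair 3. The other CD2 probes were well above background on replicate 3 arrays at most.

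CD7 and CD28 reached background on several arrays. The CD7 probe, at chr17:80273242-80273301, was well above background on the replicate 1 and 3 arrays of both groups and on neither replicate 2 array, so it was not tested. On those 4 arrays it read -4.45 and -5.91 in mock and -3.95 and -5.98 in NUDT16 cells, again highest on replicate 1. CD28 was measured by 1 of its 2 probes, at chr2:204599903-204599962, on all mock arrays and on NUDT16 replicate 3. It read -6.71, -6.84 and -6.06 in mock and -6.25 on that NUDT16 array, and the readings of -8.38 and -5.85 on NUDT16 replicates 1 and 2 were not well above background. The limma difference of -0.29, with an interval from -1.89 to 1.31, therefore includes 2 background readings. The second CD28 probe was well above background on no array.

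**Figure D1:**
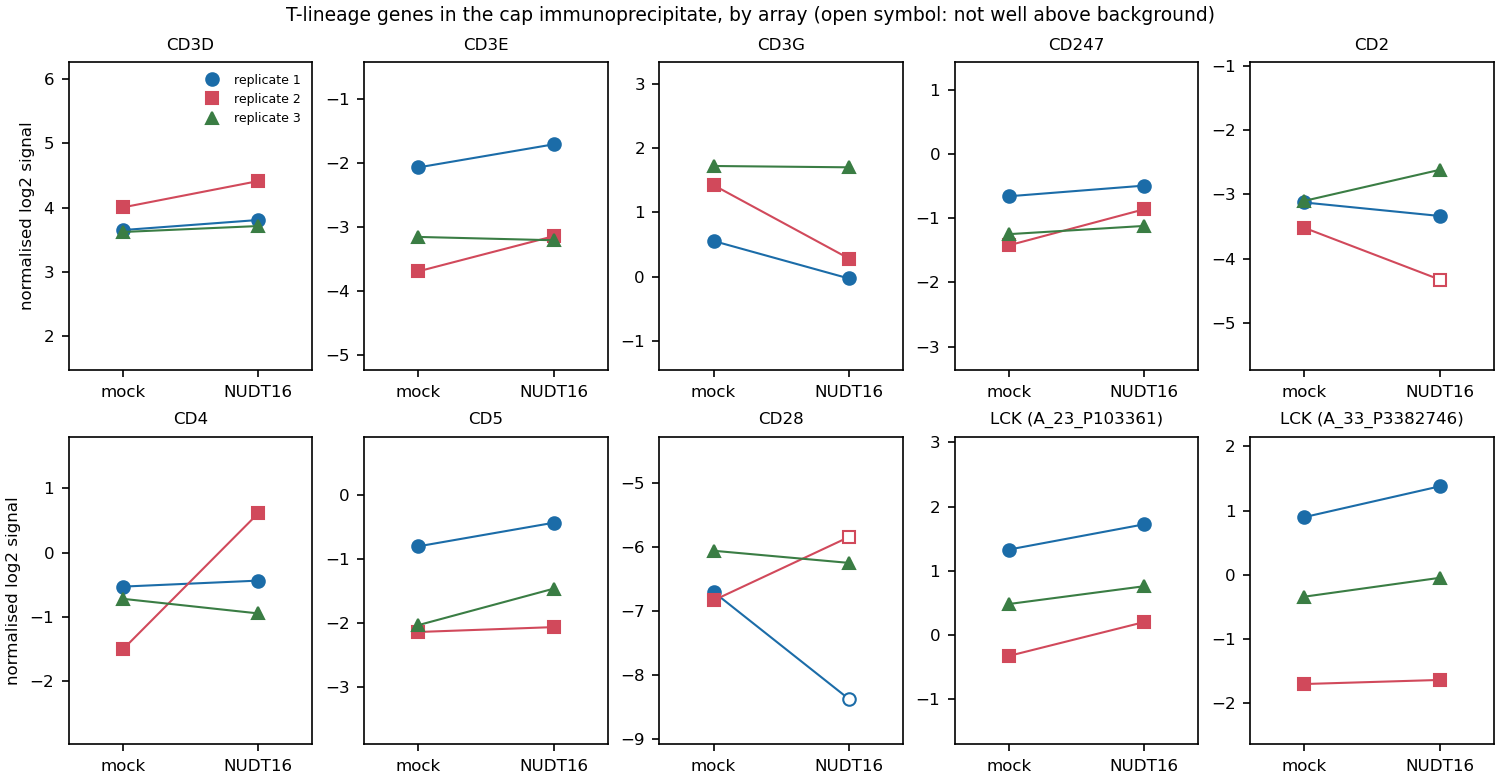
Normalised log2 signal (vertical axis, of the same length in every panel) of the 10 tested probes on mock and NUDT16 arrays, with same-numbered arrays joined and coloured by replicate number; open symbols are readings not well above background. Replicate 1 (circles) lies above the others for CD3E, CD247, CD5 and both LCK probes and, within each group, below them for CD3G, and no line of CD3D, CD247, CD5 or LCK slopes by more than 0.57.

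Of the 16 member probes, 10 were tested, for 9 of the genes, and 8 were well above background on all 6 arrays. CD2 and CD28 passed the filter through the mock group alone. None of the 10 was called at a limma adjusted p under 0.05, against 0.00563% of all tested probes, and none had an unadjusted p under 0.05, against 8 of the 17765. The members' adjusted p was 0.999 throughout, and their unadjusted p lay between 0.323 and 0.784. None of the 10 had groups without overlap, against 0.591% of the tested probes. The intervals reached 1.26 to 1.90 to either side of the estimate. With the replicate number as a block they were narrower, at 0.72 to 1.22, and none of the members had an unadjusted p under 0.05, against 1734 of all tested probes. Blocked intervals ran from -0.32 to 1.12 for the downstream and -0.45 to 1.01 for the upstream LCK probe, and from -1.41 to 0.24 for CD3G. An interval concerns a single probe, and the adjusted threshold over 17765 probes is harder to pass, so a difference beyond an interval need not have been called.

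Over the 7 genes measured on all 6 arrays, the median difference was 0.29, beside 0.18 for the 5701 genes so measured, whose middle 50% lay between -0.30 and 0.48. Only CD3G and CD4 lay outside those quartiles. Of the 8 member probes, 5 were higher in NUDT16 in all 3 pairs, against a background of 27.0%: CD3D, CD247, CD5 and both LCK probes, of which the last pair share a gene. CD3G was lower in all 3, against 19.3%. The positive directions depend on the scaling: when arrays were scaled to their median over all probes, the differences of CD3D, CD3E, CD247, CD4, CD5 and LCK all turned negative, as they did with no scaling. Those scalings moved the median of all tested probes from -0.11 to -0.78 and -1.10. On NUDT16 replicate 2, with 14.6% of spots well above background, the median over all probes was a background reading, and so was the 75th percentile over all probes. All 10 tested member probes kept their sign with the 75th percentile over all probes, quantile normalization, normexp with quantile normalization, or the authors' values. Scaling by the array median, or none, shifts all probes of an array alike, so it could not change the gap between members and other genes. Beside the genes measured on all 6 arrays, the 7 members' median was -0.39 against -0.50 by the array median and -0.71 against -0.82 unscaled. The members' median was not the higher without NUDT16 replicate 1, at -0.015 against 0.11, and without mock replicate 2 it was 0.097 against 0.092.

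**Figure D2:**
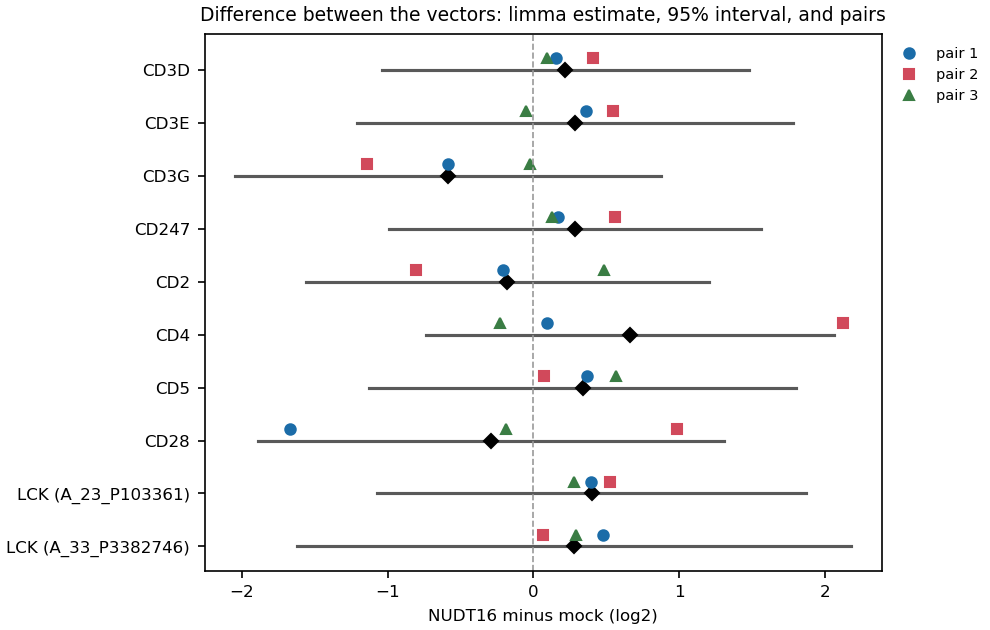
NUDT16 minus mock (log2, horizontal axis) for the 10 tested probes: diamonds and bars give the limma estimate and its 95% interval over 3 arrays a group, and coloured symbols the same-numbered pairs. Every interval includes 0, and pair 2 lies farthest from 0 for CD4 (2.12) and CD3G (-1.14). Under scaling to the array median or none, all estimates but those already negative change sign, and under the other scalings none does.

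Single arrays also set the sign for several members. Without NUDT16 replicate 1 the differences of CD3E, CD5 and both LCK probes turned negative, to -0.20, -0.11, -0.01 and -0.46, and that of CD28 positive, to 0.48. Without mock replicate 2, the difference of CD3E was -0.07 and those of the LCK probes were -0.01 and -0.38. Without NUDT16 replicate 2, CD2 turned to 0.27. CD3D, CD247, CD4 and CD3G kept their sign whichever array was left out, but their sizes moved. Without NUDT16 replicate 2 the difference of CD3D was 0.0019 and that of CD4 0.23. That of CD247 ran from 0.12 without NUDT16 replicate 1 to 0.51 without mock replicate 1, and that of CD3G from -0.24 without NUDT16 replicate 1 to -1.11 without NUDT16 replicate 3. With replicates 1 and 3 alone, and the replicate number as a block, 3.45% of the tested probes were called (613 of 17765) but none of the members, whose limma adjusted p lay between 0.0548 (CD28, which has a background reading there) and 0.915.

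The spread of the members followed the replicate number more than the vector. Over the 8 probes measured on all 6 arrays, the replicate number took a median of 84.3% of the sum of squares and the vector 12.3%, beside 73.1% and 11.7% over all 6582 probes so measured. The replicate number has more levels than the vector, so it would tend to take the larger share even of random spread. The replicate share was 98.0% for the upstream LCK probe, 92.6% for CD3E, 91.2% for CD5 and 90.9% for the downstream LCK probe. It was 77.8% for CD3D, 72.1% for CD3G and 72% for CD247, all inside the quartiles of all probes (51.3% and 86.4%). CD4 stood apart, with 7.43% for the replicate number and 65.9% in the remainder. Slide, scan and replicate number coincide, so which of them goes with these levels cannot be told apart. These shares and the differences within arrays given next were chosen as views after the values had been seen.

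**Figure D3:**
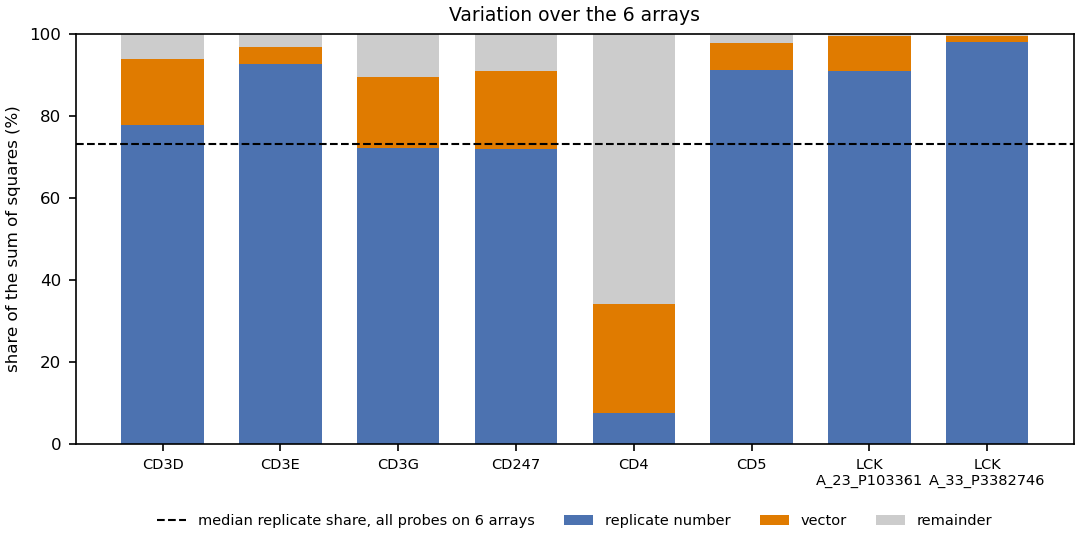
Share of the sum of squares over the 6 arrays (percent, stacked bars) taken by the replicate number, the vector and the remainder for the 8 member probes well above background on all arrays; the dashed line is the median replicate share of all 6582 such probes, 73.1%. The replicate number takes over 70% in 7 of the 8 bars, and only 7.43% for CD4.

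The GC content of the probes was set beside this pattern, and its part in it was not tested. On replicate 1, compared with the mean of replicates 2 and 3, CD5 with 38.3% GC in its probe was 1.31 higher and CD3E with 55.0% was 1.41 higher. CD3G and the upstream LCK probe share a GC content of 45.0%, yet CD3G was 1.02 lower and LCK 2.07 higher. Over all 6582 probes, the Pearson correlation of GC content with this offset was 0.08, and 0.17 on the mock arrays alone; over the 8 member probes it was 0.29. The median offset was -0.21 for probes under 40% GC and 0.12 for those over 50%. These are descriptions of probes that share 6 arrays.

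Differences between probes of the same array do not depend on a scaling that shifts all probes of an array alike. They were not computed under quantile normalization. The downstream LCK probe minus CD3E stayed nearly constant, at 3.40, 3.36 and 3.64 in mock and 3.44, 3.35 and 3.97 in NUDT16 cells, a range of 0.62 or 1.54-fold. CD5 minus CD3E likewise spanned only 0.66. The CD3E, CD5 and downstream LCK probes thus held close to a fixed ratio on arrays over which each of them moved by 1.70 to 2.05. The upstream LCK probe moved by 3.08 over the same arrays. The near-constant ratio therefore holds for the downstream probe and not for LCK as a whole.

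CD3G and CD3E did not hold such a ratio. Their difference was 2.63, 5.12 and 4.88 in mock and 1.68, 3.43 and 4.91 in NUDT16 cells, a range of 3.44 or 10.8-fold. It was lowest on the replicate 1 arrays of both groups. In NUDT16 cells it was lower by 0.95 and 1.69 in pairs 1 and 2 and higher by 0.03 in pair 3, and the exact permutation test over the 6 arrays gave p = 0.6 (two-sided). With 3 arrays against 3 that test cannot give a p below 0.1. CD3D minus CD3E followed the replicate number almost fully, with 99.0% of its sum of squares: it was 5.72, 7.70 and 6.78 in mock and 5.52, 7.56 and 6.92 in NUDT16 cells.

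The gap between the LCK probes, upstream minus downstream, compares places along 1 gene. It was -0.43, -1.38 and -0.82 in mock and -0.35, -1.84 and -0.81 in NUDT16 cells. The gap was widest on both replicate 2 arrays and narrowest on both replicate 1 arrays, and the replicate number took 93.2% of its sum of squares. Between the vectors it differed by -0.12 (exact two-sided permutation p = 1). In all, 10 such differences were computed, with exact p from 0.3 (CD3D minus CD3G, 0.80 higher in NUDT16) to 1. With a smallest possible p of 0.1, and without the pairing of the arrays, this test could not have passed an adjustment over the 10, so it says nothing of stability.

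**Figure D4:**
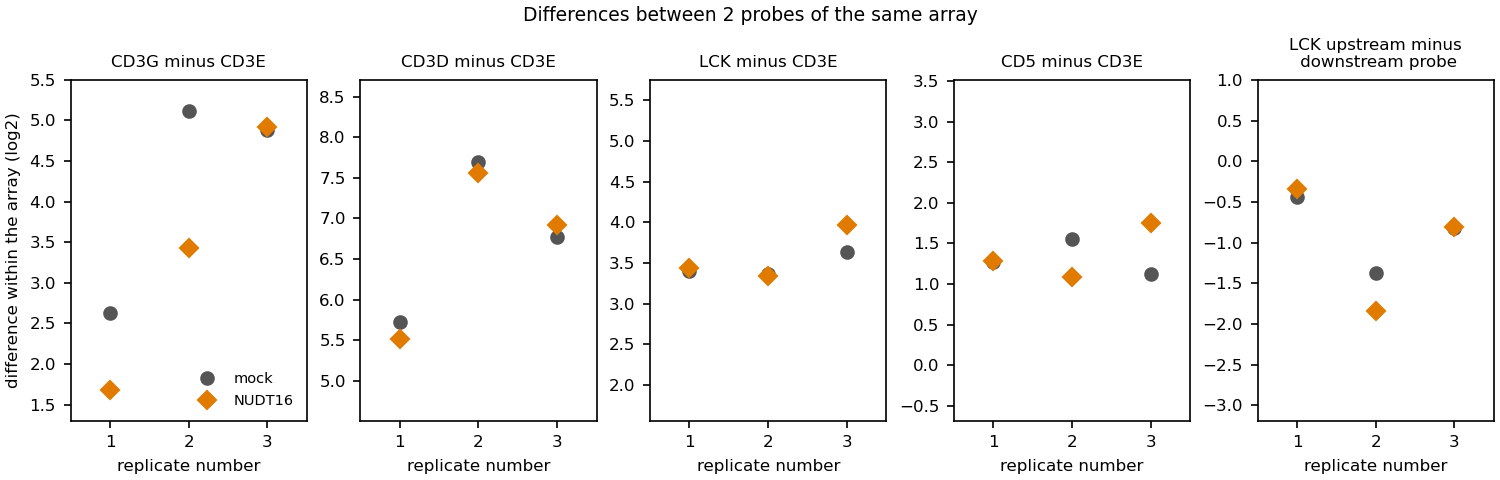
Difference between 2 probes of the same array (log2, vertical axis, of the same length in every panel) against replicate number, for mock (circles) and NUDT16 (diamonds) arrays. LCK (downstream probe) minus CD3E and CD5 minus CD3E are nearly flat. CD3G minus CD3E runs from 1.68 to 5.12, and the other differences step with the replicate number in both groups.

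Over the 6 arrays, CD3E correlated with LCK (downstream probe) at a Pearson r of 0.95, with CD5 at 0.94 and with CD247 at 0.93. CD5 correlated with that LCK probe at 0.95. CD3G ran against them, at -0.73 with CD3E and -0.88 with CD247. These are descriptions over 6 points that share 3 slides. The genes whose profile over the 6 arrays was most like the mean profile of the 7 members were SDR39U1 (r = 0.999), ZAP70 (0.998), NRM (0.997), PHLDB3 (0.997) and RANGAP1 (0.997). High values were common: 654 of 4623 candidate genes had r over 0.9. ZAP70, the kinase that docks on phosphorylated CD3 and zeta tails, read 1.24, -1.24 and -0.17 in mock and 1.69, 0.11 and 0.17 in NUDT16 cells.

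The antigen-binding chains were looked up by the descriptions in the deposited files, after those files had been seen, because 6 of the 8 listed receptor chain symbols are not used as gene names on the array. The probe described as T-cell receptor beta constant 2 was bright on all 6 arrays, at 5.03, 4.66 and 4.76 in mock and 5.27, 5.76 and 4.75 in NUDT16 cells. Its limma difference was 0.44, with an interval from -0.84 to 1.72. The pair differences of this probe were 0.24, 1.10 and -0.02, so the estimate rested mostly on pair 2. The alpha constant probe was well above background on 5 arrays, and the delta constant probe on none. The alpha constant probe passed the filter through the mock group. It differed by 1.16, with an interval from -0.30 to 2.62 and pair differences of 0.74, 2.25 and 0.49, the largest in pair 2. Beta constant genes are near-identical, so the beta constant 2 probe may read both.

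Of 95 probes for variable segments of the receptor, 61 were well above background on no array and 4 on all 6, all 4 of them for the beta chain. The segment 20-1 probe was the brightest of these, at 3.73, 4.50 and 4.06 in mock and 3.97, 6.17 and 3.90 in NUDT16 cells. Its pair differences were 0.24, 1.66 and -0.16. The second, for segment 20/OR9-2, is a near copy of it and cannot be read as a separate transcript. None of the 9 variable-segment probes tested was called. The probe for beta segment 10-2, singled out after its values were seen, was well above background on all NUDT16 arrays and 1 mock array, and so passed through the NUDT16 group. It differed by 2.4, with an interval from 0.05 to 4.75 that excludes 0, at a limma adjusted p of 0.999. Its pair differences were 2.39, 4.72 and 0.09. Its mock intensities were 8.75, 11.4 and 57.2 in replicates 1, 2 and 3, so pairs 1 and 2 were set against very dim readings. The probe was picked by its values and passed through the group where it is high, so this interval cannot serve as support for a difference. Of the 2 listed chains with a gene name, PTCRA, the surrogate alpha chain of immature T cells, differed by -0.13 and TARP by 0.95, and TARP rested on pair 2 (3.17, against -0.01 and -0.32).

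Proximal signalling genes, which relay the signal of the receptor, showed no called difference. Of 28 listed genes on the array 21 were tested and 8 were measured on all 6 arrays. None was called in either direction, and none had groups without overlap. The median difference was -0.21 over the 21 and 0.22 over the 8, beside -0.06 and 0.18 for all genes. The other 13 passed the filter through the mock group alone, the group where they had to be high, and 12 of them were negative, so the negative median of the 21 is no result about the list. Among the largest differences were those of NCK1 (-1.27), TRAT1 (-1.12) and ZAP70 (0.71). NCK1 and TRAT1 rested on pair 2, at -3.07 and -3.27, where their NUDT16 readings were not well above background.

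Of the 21 listed negative regulators 18 were tested, none was called, and none had groups without overlap. Their median difference was -0.05, and 0.37 over the 7 measured on all 6 arrays. PTPN2, a phosphatase that acts on LCK, differed by -1.72 with an interval from -3.81 to 0.37, and its pair differences were -0.96, -3.58 and -0.63. PTPRC, which encodes the CD45 phosphatase, differed by -1.22, the ubiquitin ligase gene CBLB by -1.01 and the adaptor gene SLA2 by 0.83. The PTPRC difference was largest in pair 2, at -2.44, against -0.94 and -0.30 in pairs 1 and 3. Of 19 other T-lineage surface genes 15 were tested and none was called, with a median difference of 0.06. The largest differences there were those of CD69 (-0.78), CD38 (-0.78), CCR7 (-0.67) and SPN (-0.47). Of the 18 regulators 11, and of the 15 surface genes 9, passed through the mock group alone, PTPN2, CBLB, SLA2, CD69, CCR7 and SPN among them. These 6 were not well above background on NUDT16 replicate 2, and each had its largest pair difference in pair 2. With replicates 1 and 3 alone they ran from -0.79 (PTPN2) to 0.16 (SLA2). Over the 56 tested genes of these lists, none had an unadjusted limma p under 0.05. Every one of these list medians was negative when arrays were scaled by their median or not scaled.

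**Figure D5:**
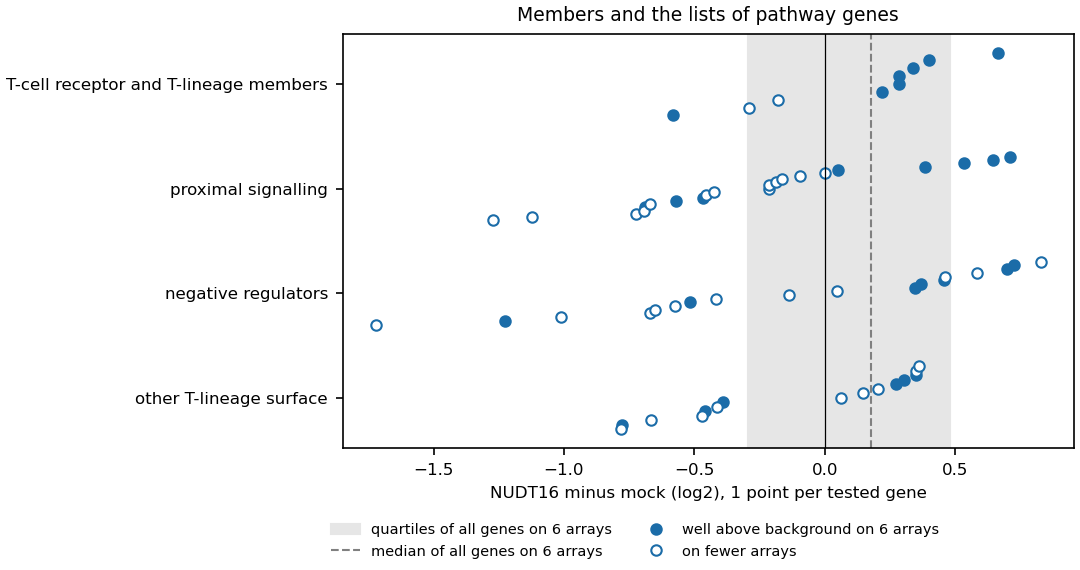
NUDT16 minus mock (log2, horizontal axis), 1 point for each tested gene of the members and of 3 pathway lists; filled points were well above background on all 6 arrays, open points on fewer. The band and dashed line are the quartiles (-0.30 and 0.48) and median (0.18) of all genes measured on all 6 arrays; no point was called, and signs depend on the scaling.

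The labelled cell type was checked against marker lists. All 10 T-lineage genes were well above background on at least 1 array, and 9 were tested. Of the markers of other cell types on the array, 4 of 6 B cell, 3 of 4 erythroid, 2 of 5 natural killer and 2 of 5 myeloid markers were well above background on at least 1 array, and 3, 1, 1 and 0 of them were tested. Signal on the array was therefore not limited to T-lineage genes. CD79A, a B cell marker, was well above background on all 6 arrays and differed by 0.38 with an interval from -1.0 to 1.76. That difference rested on pair 2, at 1.65, against -0.17 and -0.33 in pairs 1 and 3. Whether these markers bear on the members' levels was not tested.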

How the data were processed

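The 6 arrays measured cap-immunoprecipitated RNA, 3 for each vector, with groups and replicate numbers taken from the titles. Per the file headers, scans were read with Agilent Feature Extraction 10.7.3.1 and give linear fluorescence intensity per spot, background-subtracted within the array, with a surrogate for spots not above background and no normalization between arrays. The authors also deposited a table of log2 values; how it was made is not given in the sources used here, its ranks equalled those of median spot minus background intensity on each array (Spearman's rho 1), and it served as an alternative. The submitters' processing notes also name limma.

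Control spots and outlier spots were left out, spots of one probe were averaged, and 13 probes without a usable spot on every array were dropped. Detection on an array required over 50% of a probe's spots to be marked well above background. Log2 processed intensity was shifted by each array's 75th percentile over probes well above background on all 6 arrays, since on NUDT16 replicate 2 the percentile over all probes was a background value. No spot was saturated, and no column was left unmapped. The 17765 probes detected on every array of either group entered a two-sided test by limma 3.58.1 under R 4.3.3 (functions lmFit and eBayes, without a block, with Benjamini-Hochberg adjustment at 0.05 and 95% intervals); the number of arrays limits the precision. The brightest probe stood for a gene in medians. The fit was tested on simulated data. All probes of each member are accounted for; of the pathway lists, called genes or otherwise up to 4 with the largest difference are named, and 5 genes most like the members. Some genes that the rule or the marker lists select are not reported here. The members and lists were chosen with earlier results of these data known.

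As a check of pairing, each array's deviation from its group mean was correlated with that of its same-numbered partner: r was 0.84, 0.39 and 0.77 for numbers 1, 2 and 3. The numbers, which are also slide and scan, therefore pair the arrays. The settings tried were other scalings, quantile normalization, normexp (offset 50), other filters, the replicate block, array weights, a trended robust prior, the authors' table, replicates 1 and 3 only, and each array left out.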

Additional observations from a re-analysis of the deposited data

How the results depend on the processing

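No member was called under any of the 18 settings, and 153 of their 178 values kept the direction reported, with limma adjusted p from 0.0548 to 1. Scaling by the array median gave -0.46 for CD3D, -0.39 for CD3E, -0.39 for CD247, -0.014 for CD4, -0.34 for CD5 and -0.28 and -0.40 for the LCK probes, with a list median of -0.39. No scaling gave -0.78, -0.71, -0.71, -0.33, -0.66, -0.60 and -0.72 in that order, with a list median of -0.71. Replicates 1 and 3 with the replicate block gave 0.14 for CD2 and -0.067 for CD4, and 613 calls in all. With each array left out in turn, differences ran from -0.20 to 0.74 for CD3E, -0.11 to 0.77 for CD5, -0.015 to 0.82 and -0.46 to 1.05 for the LCK probes, -0.58 to 0.27 for CD2 and -0.78 to 0.48 for CD28, and the list median from -0.015 to 0.51. The single call over all probes was lost (0 calls) unscaled, under normexp, without a filter, when only probes measured on all 6 arrays were kept, and in the authors' table, with 1, 9, 160, 2 and 10 probes at an unadjusted p under 0.05, and leaving out 1 array gave 0 to 1 calls. The replicate block, with 1 call and members' adjusted p from 0.495 to 0.817, changed no call. CD2, CD7 and CD28 have only a reading not well above background on NUDT16 replicate 2, nor CD7 on mock replicate 2 or CD28 on NUDT16 replicate 1.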
